A study of Mus musculus with 7 samples.

Results

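The complement genes examined here were 9 of the 50095 genes in the deposited table, chosen by symbol as C1qa, C1qb, C1qc, C1s1, C3, C4b, Cfb, Cfd and Serping1, and each was found on a single row. RNA had been sequenced from primary granulosa cells, the somatic cells around the oocyte, of 3-week-old female mice. Before collection the mice were given pregnant mare serum gonadotropin (5 IU), followed after 48 h by chorionic gonadotropin (5 IU). The 4 WT libraries were labelled Ezh2flox/+; Cyp19-Cre and the 3 KO libraries Ezh2flox/flox; Cyp19-Cre, so that every animal carried Cre and at least one floxed allele of Ezh2, which encodes the Polycomb H3K27 methyltransferase. Cyp19-Cre is driven by the promoter of aromatase, which granulosa cells express. The library WT4 carried the treatment label of the KO group and was kept with WT by its title and genotype. The time from chorionic gonadotropin to collection and the number of animals behind a library were not given in the sources used here, so p-values measure only the spread between these libraries, which may be technical.

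Complement is a cascade of plasma and cell surface proteins that tags particles for removal. In the classical pathway C1q binds antibody or debris and activates the proteases C1r and C1s, which cleave C4 and C2. In the alternative pathway factor B is cleaved by factor D. Both routes cleave C3, the central component, and inhibitors such as C1 inhibitor hold the cascade in check. Complement proteins occur in ovarian follicular fluid, and C1q is made mainly by macrophages and related myeloid cells.

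Levels are given in FPKM, fragments scaled to transcript length and library depth, so that levels of different genes can be compared. Differences are KO-labelled minus WT on the log2(FPKM + 1) scale, which understates changes of genes near 1 FPKM, and adjusted p-values are from limma over the 13850 genes whose mean reached 1 FPKM. Calls were made below an adjusted p of 0.05. The sum of FPKM was 372085 to 390185 in WT and 400522 to 450102 in KO-labelled libraries. Ezh2 itself read 20.5, 23.4, 25.2 and 25.3 FPKM in WT1 to WT4, against 20.03, 17.8 and 26.15 FPKM in KO1 to KO3 (log2 difference -0.15, limma adjusted p = 0.432). The targeted gene thus overlapped between the groups, so directions below rest on the labels alone. A whole-gene value also counts exons outside the deleted part. The defining granulosa markers Foxl2 and Fshr were present in all libraries. Foxl2 read 10.2 to 20.5 FPKM, and its groups overlapped. Fshr read 23.8 to 35.7 FPKM in WT and 10.1 to 16.05 FPKM in KO-labelled libraries. It was called lower (limma adjusted p = 0.00854).

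Most of the 9 complement genes were higher in the KO-labelled libraries. The C1q chains, the protease Cfd and the C1 inhibitor Serping1 showed the largest differences. Of 15 other complement genes tested, 4 were called higher and 4 lower. Of the 9 genes 7 passed the filter on low values, and 7 of these were called higher and 0 lower. Over all genes tested, 24.6% were called, 7.91% higher and 16.7% lower. Higher genes were thus 32.1% of the calls, against 52.0% with median-of-ratios, 44.4% with upper-quartile and 17.7% with equal-sum scaling. Cfd passed the filter only through its KO-labelled values, so that its call was partly fixed by the filter, and C4b and Cfb were too low to be tested. The median log2 difference of the 7 tested genes was 1.87, and that of all genes tested was -0.08. For 8 of the 9 genes, the untested C4b among them, every KO-labelled library lay above every WT library. That pattern held for 11.5% of all genes tested, while 24.8% lay below in every KO-labelled library. In such bulk samples a larger number of cells of one type and more RNA per cell cannot be told apart.

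**Figure D1:**
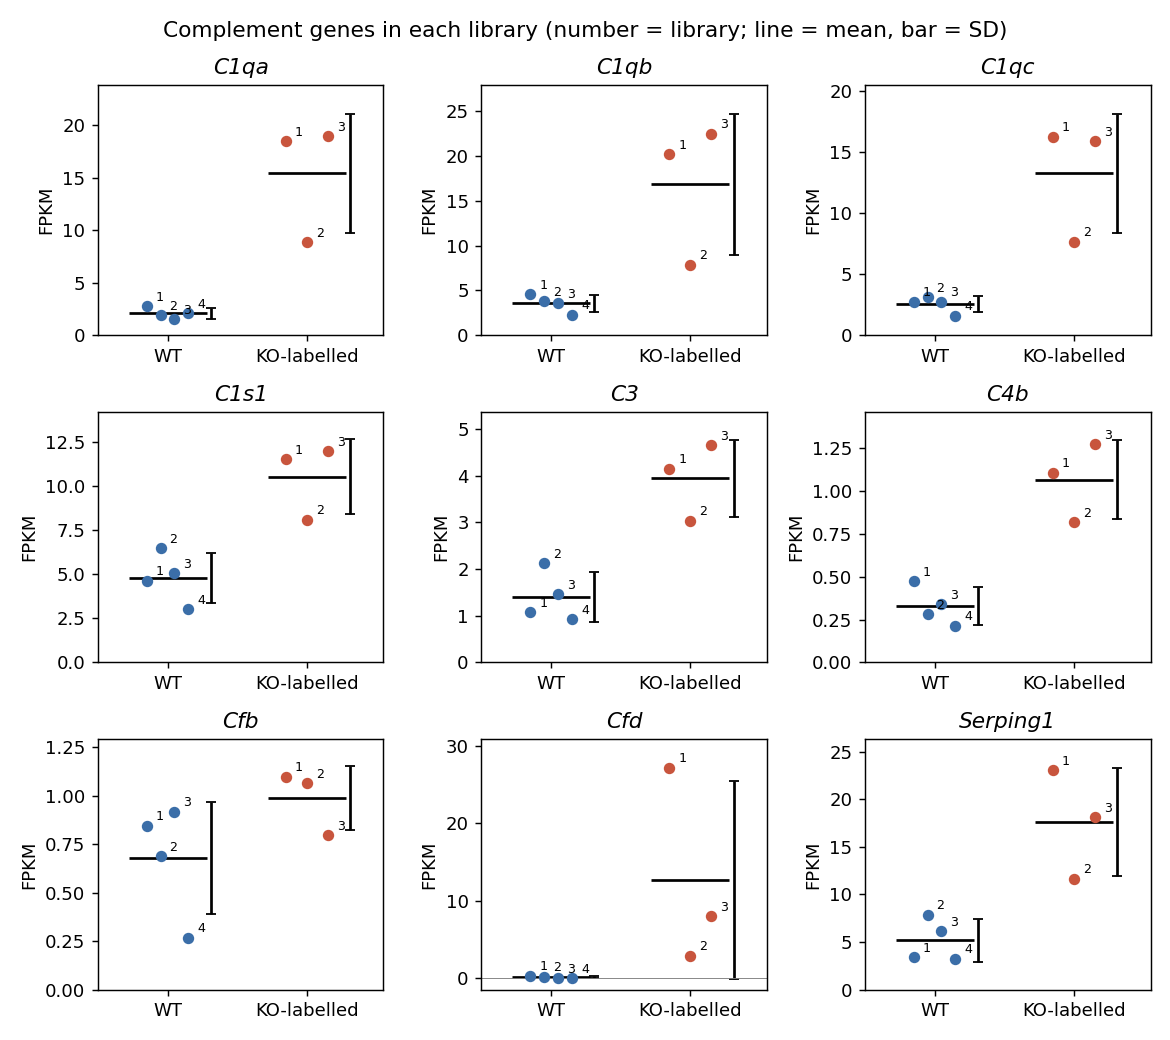
FPKM of each of the 9 complement genes (vertical axis, linear, own scale per gene) in the 4 WT and 3 KO-labelled libraries; points are libraries with their number, lines are means and bars SD. The groups overlap for Cfb alone, and KO2 is the lowest KO-labelled library for 8 of the 9 genes.

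The 3 chains of C1q, which together form the recognition molecule of the classical pathway, are encoded side by side on the minus strand of chromosome 4 (GRCm38). C1qb lies at 136880129 to 136886187, C1qc at 136889804 to 136893065 and C1qa at 136895917 to 136898803. The promoters of C1qb and C1qc are shown because these neighbouring genes moved together. C1qa moved with them, but its promoter was not in the RefSeq table used here. The bases shown lie before the RefSeq start (build GRCm38.p6, minus strand, written 5′ to 3′), at chr4:136886201-136886450 and chr4:136893066-136893164. For C1qc only the bases outside the GENCODE gene are printed. Capitals mark the core motif GAGGAA of PU.1, a myeloid transcription factor, on either strand.
C1qb: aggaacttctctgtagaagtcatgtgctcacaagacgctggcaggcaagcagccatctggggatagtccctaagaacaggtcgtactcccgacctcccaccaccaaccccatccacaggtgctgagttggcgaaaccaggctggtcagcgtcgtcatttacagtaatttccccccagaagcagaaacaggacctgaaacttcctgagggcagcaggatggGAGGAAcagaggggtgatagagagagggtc
C1qc: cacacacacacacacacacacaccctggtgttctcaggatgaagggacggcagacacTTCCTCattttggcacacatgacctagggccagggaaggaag
The motif lay 30 bases before the start of C1qb and 193 bases before that of C1qc. It occurred in 23.3% of the 32851 mouse promoters in the RefSeq table when the 250 bases before each start were searched. Promoters of 5 of the 9 genes, 6 in all, were in that table, and C1s1, C3 and Cfd held no match to it. None of the 6 promoters held the core of interferon response elements, GAAA and GAAA with a pair of any bases between (2.98% of all promoters), TTCNNNGAA, a STAT palindrome (7.02%), or CCAAT (33.8%), each searched on both strands. They held 1 to 6 CG dinucleotides, and the median over all promoters was 6. These matches are a description of the letters in each window and not of binding.

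C1qa read 2.78, 1.90, 1.56 and 2.11 FPKM in WT1 to WT4, against 18.5, 8.89 and 19.0 FPKM in KO1 to KO3. The lowest KO-labelled library was thus 3.19 times the highest WT library. The group means of 2.09 ± 0.516 (SD, n = 4) and 15.4 ± 5.68 FPKM (n = 3) lay 2.36 apart on the log2 scale (SE 0.25, 95% interval 1.80 to 2.91, limma adjusted p = 0.00253). C1qb read 4.59, 3.81, 3.56 and 2.30 FPKM in WT and 20.2, 7.89 and 22.5 FPKM in KO-labelled libraries. Its groups were closest in WT1 and KO2, which differed by 1.72-fold, and its log2 difference was 1.87 (SE 0.32, 95% interval 1.15 to 2.60, limma adjusted p = 0.00725). C1qc was at 2.74, 3.10, 2.77 and 1.62 FPKM in WT and at 16.3, 7.66 and 15.9 FPKM in KO-labelled libraries. It rose by 1.96 on the log2 scale (SE 0.25, 95% interval 1.38 to 2.53, limma adjusted p = 0.00395). In WT libraries 17.0% of the tested genes had a lower mean than C1qa, and in KO-labelled libraries 72.9%.

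The sum of the C1q chains was 6.03 to 10.1 FPKM in WT and 24.4 to 57.4 FPKM in KO-labelled libraries. C1qb was the most abundant chain in every WT library, with 38.2% to 45.4% of the sum. In KO-labelled libraries the chains were closer to each other, at 33.0% to 36.4% for C1qa, 32.3% to 39.2% for C1qb and 27.7% to 31.4% for C1qc. These shares overlapped between the groups for each chain, and the WT share of C1qa ranged most widely, from 19.8% to 35.1%.

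**Figure D2:**
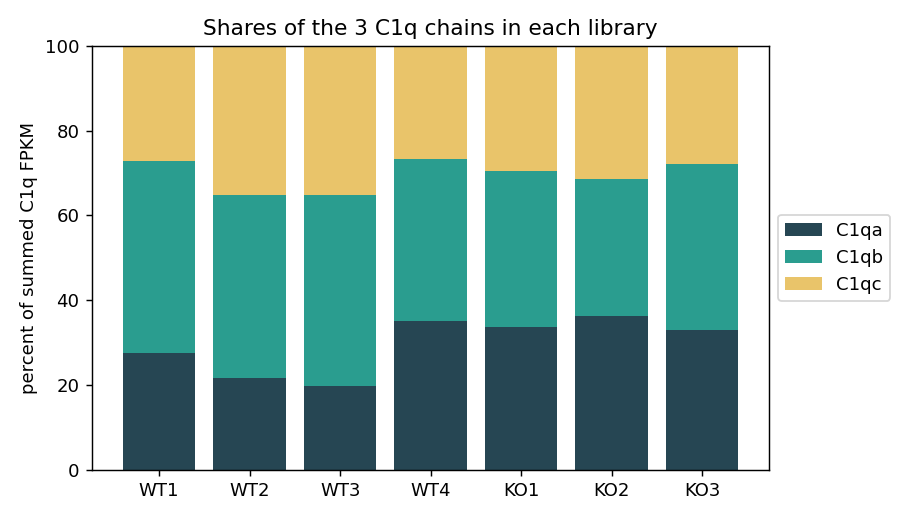
Share of C1qa, C1qb and C1qc in their summed FPKM (vertical axis, percent) in each of the 7 libraries. C1qb holds the largest share in all 4 WT libraries, and C1qa exceeds it in KO2 alone.

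Markers of macrophages were higher in the same libraries. Of 18 markers, C1q not included, 13 were tested, 12 were called higher and 0 lower, against 7.91% and 16.7% of all genes tested. Of these 12, Csf1r, Cd14, Fcgr3, Mrc1 and Aif1 passed the filter on low values only through their KO-labelled values, so that these 5 calls were partly fixed by the filter. Their summed level was 24.5 to 43.7 FPKM in WT and 62.9 to 126 FPKM in KO-labelled libraries, and KO2 was the lowest KO-labelled library for 17 of the 18. Adgre1, an adhesion-type receptor that marks mouse macrophages, was low in every library at 0.264 to 0.421 and 0.980 to 1.72 FPKM. The macrophage growth factor receptor Csf1r read 0.525 to 1.10 FPKM in WT and 1.98 to 3.57 FPKM in KO-labelled libraries. Aif1 was the single marker of this list at 0 in a library, WT4. Relative to the summed macrophage markers, the C1q sum was 0.232 to 0.304 in WT and 0.389 to 0.479 in KO-labelled libraries. The ratio of C1qa to Csf1r was 1.73 to 4.03 and 4.48 to 6.79, and that of C1qa to the lysosomal protease Ctss was 0.863 to 1.26 and 1.22 to 1.45. The ratio to Ctss overlapped between the groups, and those to the summed markers and to Csf1r did not. Such ratios depend on the marker chosen. Lyz2 was the largest part of the summed markers in every library, and its KO-labelled mean was 2.71 times its WT mean. For C1qa that factor was 7.39 and for Csf1r 3.61. The factor exceeded that of C1qa for Aif1 (10.3) and Ms4a7 (9.39), both below 1 FPKM in WT. All other markers of the list lay below C1qa. The part of macrophage RNA in the C1q result was not tested.

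C1s1 encodes the protease C1s, which C1r activates and which then cleaves C4 and C2 (chromosome 6, 124530345 to 124542359, minus strand). It read 4.65, 6.47, 5.05 and 3.02 FPKM in WT1 to WT4 and 11.5, 8.10 and 11.98 FPKM in KO1 to KO3. The groups did not overlap, with WT2 and KO2 nearest to each other. The log2 difference was 1.01 (SE 0.21, 95% interval 0.54 to 1.48, limma adjusted p = 0.0120). The call was lost without KO1 (adjusted p = 0.0504) and with no filter (0.0503), over a range of 0.00778 to 0.0504 among all alternatives. C1ra, which encodes the partner protease C1r and lies next to C1s1, rose from 4.41 ± 0.649 to 6.95 ± 1.04 FPKM (log2 0.55, limma adjusted p = 0.0210), a call that 5 alternatives did not keep. The ratio of C1s1 to C1ra was 0.832 to 1.25 in WT and 1.41 to 1.602 in KO-labelled libraries. Other copies of these proteases, C1rb and C1s2, were below the filter, and fragments shared between the copies make these values uncertain. An antisense gene model, Gm16567, overlaps exons of C1s1 and was listed at 0 in every library.

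C2 supplies the protease subunit of the classical C3 convertase, while C4 supplies the subunit that binds to the target surface. C2 rose from 2.69 ± 1.05 to 7.75 ± 1.98 FPKM (log2 1.27, limma adjusted p = 0.0114), and its call was lost with no filter (adjusted p = 0.0502). C4b lies on chromosome 17 (34728380 to 34743882, minus strand) and read 0.474, 0.283, 0.340 and 0.215 FPKM in WT1 to WT4. In KO1 to KO3 it read 1.11, 0.817 and 1.27 FPKM, above all WT libraries but low throughout. With no filter its log2 difference of 0.64 was called (limma adjusted p = 0.0364), where 2.24% of 32922 genes were called higher. With a minimum mean of 0.5 FPKM and a pseudocount of 0.1, chosen after its level was seen, the difference was 1.46 (limma adjusted p = 0.0189), against 7.36% of 16229 genes called higher. C4a, a near-identical copy, was at 0.570 ± 0.0933 and 0.492 ± 0.109 FPKM, and how shared fragments were divided between the copies is not known.

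C3, which every route of activation cleaves, was at 1.07, 2.12, 1.46 and 0.920 FPKM in WT1 to WT4 (chromosome 17, 57203970 to 57228136, minus strand). In KO1 to KO3 it was at 4.15, 3.04 and 4.64 FPKM, and the lowest of these was 1.43 times the highest WT value. The log2 difference was 1.06 (SE 0.19, 95% interval 0.62 to 1.49, limma adjusted p = 0.00859).

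The enzymes of the alternative pathway differed from each other. Cfb, which encodes factor B (chromosome 17, 34856374 to 34862518, minus strand), read 0.844, 0.687, 0.916 and 0.268 FPKM in WT1 to WT4 and 1.10, 1.06 and 0.796 FPKM in KO1 to KO3. KO3 lay below WT1 and WT3, so the groups overlapped. Cfb was not called in either fit that tested it, with log2 differences of 0.26 with no filter (limma adjusted p = 0.445) and 0.57 with the lower filter and pseudocount (adjusted p = 0.305). A gene model, Gm20547, shares exon sequence with it on the same strand, which makes its value uncertain.

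Cfd encodes factor D, also called adipsin, the protease that cleaves factor B and is made mainly by fat cells (chromosome 10, 79890853 to 79892655, plus strand). It read 0.300 and 0.144 FPKM in WT1 and WT2, was listed at 0 in WT3 and WT4, and stood at 27.2, 2.86 and 7.99 FPKM in KO1 to KO3. The groups were far apart, but KO1 held more Cfd than KO2 and KO3 together. The log2 difference was 3.17 (SE 0.53, 95% interval 1.96 to 4.37, limma adjusted p = 0.00703), the largest of the 9 genes. It was 2.42 without KO1 (adjusted p = 0.0115) and 5.62 with a pseudocount of 0.1 (adjusted p = 0.00456), among alternatives whose adjusted p ranged from 0.00136 to 0.0372. Of 7 adipocyte markers, a list added after these values were seen, 3 were tested and 3 were called higher, against 7.91% of all genes tested. Among the called markers, Car3 passed the filter only through its KO-labelled values. The sum of the 7 was 7.31 to 11.1 FPKM in WT and 20.4 to 40.8 FPKM in KO-labelled libraries. Adipoq, the adipocyte hormone adiponectin, read 0.0322, 0.133, 0 and 0 FPKM in WT1 to WT4, against 2.56, 0.231 and 0.507 FPKM in KO1 to KO3. Cidec and Lep were listed at 0 in all WT libraries. The part of fat cell RNA in the Cfd result was not tested.

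Serping1 encodes C1 inhibitor, a serpin that blocks C1r and C1s (chromosome 2, 84765387 to 84775444, minus strand). It read 3.41, 7.87, 6.16 and 3.23 FPKM in WT1 to WT4, against 23.0, 11.6 and 18.1 FPKM in KO1 to KO3. All KO-labelled libraries exceeded WT2, the highest WT library. The means of 5.17 ± 2.25 and 17.6 ± 5.72 FPKM lay 1.62 apart on the log2 scale (SE 0.30, 95% interval 0.94 to 2.29, limma adjusted p = 0.00885). The call was lost with a block for replicate number together with the length correction (log2 1.46, adjusted p = 0.0525, over a range of 0.00665 to 0.0525 among all alternatives). The ratio of Serping1 to C1s1, the inhibitor to its target protease, was 0.733 to 1.22 in WT and 1.44 to 2.00 in KO-labelled libraries.

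Other complement genes moved in both directions. Of 45 further genes 15 were tested, 4 were called higher and 4 lower, against 7.91% and 16.7% of all genes tested. The median log2 difference of the 15 was 0.25. Their split was 6 higher and 2 lower with median-of-ratios scaling and 5 higher and 3 lower with upper-quartile scaling. Besides C1ra and C2, the receptor Cd93 rose from 0.793 ± 0.390 to 3.19 ± 0.574 FPKM (log2 1.24, limma adjusted p = 0.00577). It passed the filter only through its KO-labelled values. Cd55, which encodes decay-accelerating factor and dismantles convertases on the cell surface, rose from 12.7 ± 0.741 to 20.8 ± 1.53 FPKM (log2 0.67, adjusted p = 0.00424). Cd55 was called in all 18 alternatives. Susd4, a membrane complement inhibitor, fell from 10.8 ± 1.56 to 6.44 ± 0.570 FPKM (log2 -0.65, limma adjusted p = 0.00944) and was also called in all 18.

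The calls of the remaining falls depended on the processing or on single libraries. Masp1, a protease of the lectin pathway, stood at 16.6 ± 5.45 and 7.50 ± 3.09 FPKM (log2 -1.06, limma adjusted p = 0.0310). Its groups overlapped, since KO2 at 10.6 lay just above WT1 at 10.5 FPKM, and 7 alternatives did not call it. Csmd1, a membrane regulator, was at 4.77 ± 0.529 and 3.08 ± 0.514 FPKM (log2 -0.50, adjusted p = 0.0232) and was not called in 7. Cr1l, which encodes Crry, a rodent membrane inhibitor of C3 convertases, was at 21.7 ± 1.18 and 17.4 ± 0.304 FPKM (log2 -0.30, adjusted p = 0.0317) and was not called in 11. With the correction for transcript length the log2 differences were -0.87 for Masp1 (limma adjusted p = 0.0531), -0.16 for Csmd1 (0.247) and -0.16 for Cr1l (0.140).

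The highest level among the complement genes described here belonged to a gene that was not called. Clu, which encodes clusterin, an inhibitor of the terminal complex, read 332 ± 28.5 and 421 ± 57.2 FPKM (log2 0.33, 95% interval 0.046 to 0.62, limma adjusted p = 0.0846). Further uncalled genes lay at far lower levels. Mbl2, a mannose-binding lectin, was at 5.08 ± 1.33 and 7.44 ± 1.35 FPKM (limma adjusted p = 0.0792). Cfp, which encodes the convertase stabiliser properdin, was at 3.18 ± 1.003 and 3.66 ± 0.467 FPKM (adjusted p = 0.481). Cd59a, an inhibitor of the terminal pore, was at 2.06 ± 0.244 and 3.17 ± 1.05 FPKM (adjusted p = 0.101). The 9 genes together summed to 13.7 to 26.4 FPKM in WT and 52.0 to 123 FPKM in KO-labelled libraries. Of 8 further terminal and alternative pathway genes, C3, Cfb and Cfd not included, 3 were tested and 0 were called in either direction.

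**Figure D3:**
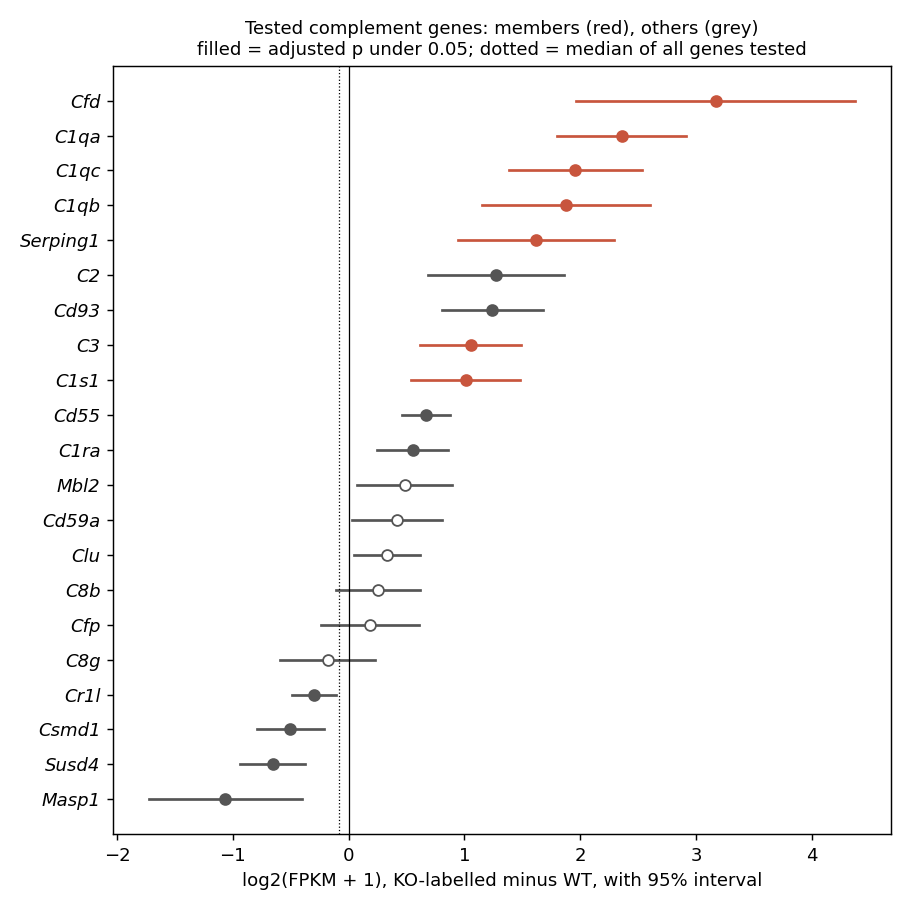
Difference of log2(FPKM + 1), KO-labelled minus WT (horizontal axis), with 95% intervals from limma for the 7 tested members (red) and 14 other tested complement genes (grey); filled points are called. The members lie between 1.01 and 3.17, and the other genes spread from -1.06 to 1.27 on both sides of the median of all genes.

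Markers of other cell types were also higher in these libraries. Endothelial markers were called higher in 10 of the 10 tested, but Tie1, Emcn, Cldn5 and Plvap passed the filter only through their KO-labelled values. Sums over the endothelial list were of 11.9 to 26.0 FPKM in WT and 48.2 to 69.1 FPKM in KO-labelled libraries. Of 10 tested epithelial markers 9 were called higher, Krt7 among them having passed the filter only through its KO-labelled values, with sums of 32.3 to 44.1 FPKM in WT and 68.8 to 150 FPKM in KO-labelled libraries. Stromal markers were called higher in 4 of the 12 tested and lower in 0, and Dpt, one of the 4, passed only through its KO-labelled values. The stromal sums of 225 to 324 and 267 to 327 FPKM overlapped. Fbln1 was their largest part in every library and went the other way from the called stromal markers. It read 150 to 185 FPKM in WT and 106 to 147 FPKM in KO-labelled libraries. The sums thus do not show how the other stromal markers differed. Of 5 theca markers 3 were called higher, namely Cyp17a1, Insl3 and Star, and Lhcgr and Hsd3b1 were not called. Of 10 granulosa markers 0 were called higher and 6 lower, Fshr among them. Over all genes tested, the shares called were 7.91% higher and 16.7% lower. The part of these cell types in the levels of C1s1, C3, C4b and Serping1 was not tested.

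**Figure D4:**
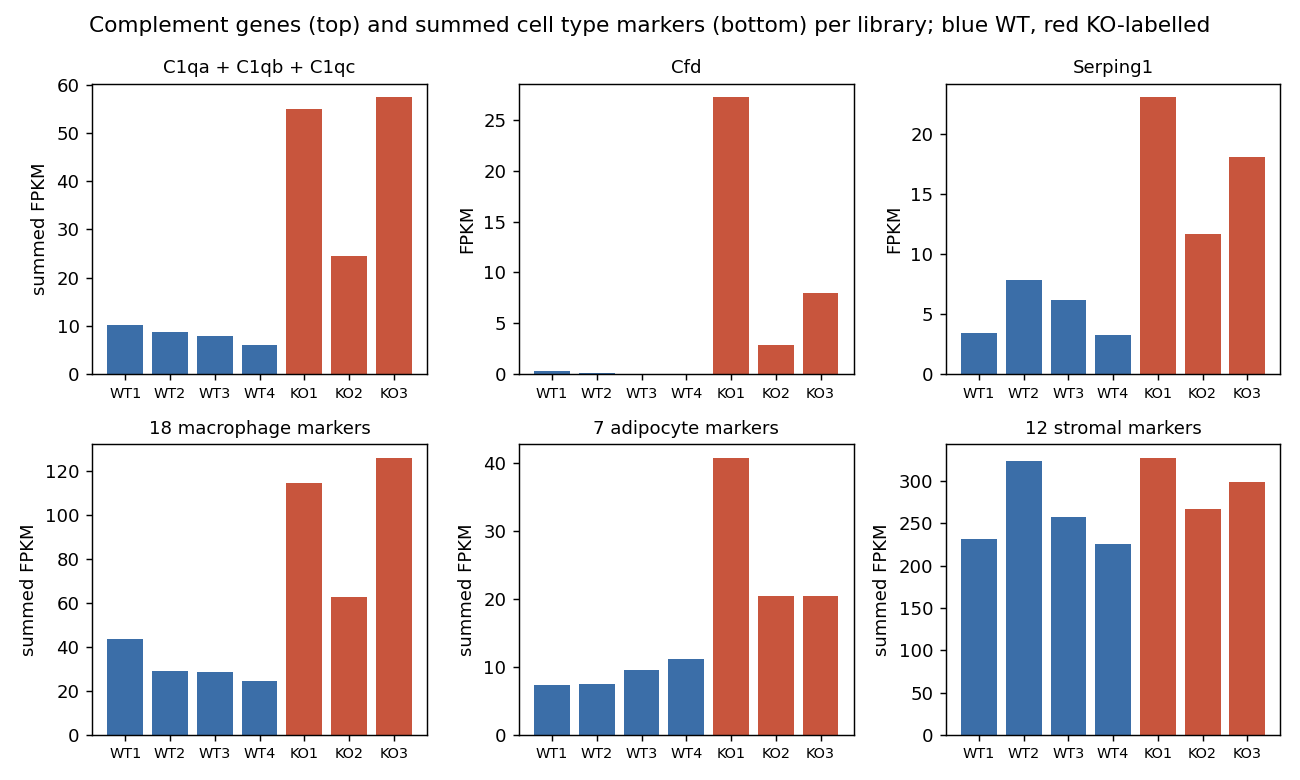
FPKM or summed FPKM per library (vertical axes from 0) of the C1q chains, Cfd and Serping1 (top) and of macrophage, adipocyte and stromal markers (bottom), WT in blue and KO-labelled in red. KO2 is the lowest KO-labelled library in every panel, and the stromal sums overlap between the groups. Their largest part is Fbln1, which is lower in every KO-labelled library than in any WT library.

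The profiles over the 7 libraries were compared by the root mean square difference of centred log2(FPKM + 1) values with 8478 genes averaging 5 FPKM or more, as a description with no test. The genes most like C1qa were Ctss, at 0.205, Cd74, the invariant chain of class II antigen presentation, at 0.265, and Ctla2a, at 0.292. C3 was most like C1s1, at 0.108, followed by Lsr (0.134) and the mesothelial antigen Msln (0.146). Among the 8478 genes, C1s1 lay closest to the matrix genes Tgfbi (0.0875), Sparc (0.0956) and Bgn (0.1201). C3 averaged below 5 FPKM and was not among these genes, but at 0.108 it lay closer to C1s1 than Bgn. Serping1 lay closest to the chemokine Cxcl14 (0.136), Sparcl1 (0.180) and the transglutaminase Tgm2 (0.188). The nearest profiles to Cfd were more distant, with the transcription factor Cebpd at 0.377, Ifi27l2a at 0.447 and the metallothionein Mt2 at 0.458. C4b, at levels where this scale understates changes, lay nearest to Srp14 (0.0785), Mvp (0.0814) and Brdt (0.0877). Cfb, which was under the same limit of scale, lay nearest to Med29 (0.0791), Tfpi (0.0922) and Clybl (0.119). Among the members, C1s1 and C3 were the closest pair (0.108) and C1qb and C1qc the next (0.161), and Cfb and Cfd the most distant (1.64).

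Genes beside the members were examined within 50 kb of each. Of 48 such genes that were not members 17 were tested, 3 were called higher and 3 lower. Over all genes tested 7.91% were called higher and 16.7% lower. The higher neighbours were C1ra beside C1s1, C2 beside Cfb and Ube2l6, an enzyme of ISG15 conjugation, beside Serping1. Ube2l6 went from 3.16 ± 0.755 to 9.71 ± 2.51 FPKM (log2 1.35, limma adjusted p = 0.00464). Between C4b and C2, Skiv2l was called lower (log2 -0.30, limma adjusted p = 0.0335), and Stk19, Dxo and Nelfe were not called, with log2 differences of 0.018, -0.0085 and -0.0050. The other lower genes, near Cfd, were Lppr3 (log2 -0.76, adjusted p = 0.00550) and Mir6910 (log2 -1.16, adjusted p = 0.0240). Ephb2 and Epha8 beside the C1q genes were below the filter, at 0.176 ± 0.0671 and 0.138 ± 0.0727 FPKM in WT.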

How the data were processed

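RNA sequencing of 7 granulosa cell libraries was analysed from 1 table of values per gene. Libraries were prepared from fragmented poly(A) RNA (NEBNext Ultra), per the labels' protocols, which state no use of strand. The table deposited by the authors was taken to hold FPKM, inferred from values that were not whole and from sums that differed between libraries. The build mm10 is named in the submitters' processing notes, together with HISAT2, HTSeq 0.12.4, edgeR, DESeq2, Trimmomatic and FastQC, but the notes assign them no roles. Coordinates and longest transcripts came from GENCODE vM21 (GRCm38), which mm10 names as well. Promoters came from RefSeq (GRCm38.p6). Protein sequences were not used here.

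Depth is unknown: only 17.7% to 19.4% of low values of single-transcript genes lay within 2% of whole fragments at the best step, so counts were not recovered and no count test was run. Genes averaging 1 FPKM or more across the 7 libraries were fitted with limma 3.58.1 in R 4.3.3 (empirical Bayes with a mean-variance trend) on log2(FPKM + 1), two-sided, with Benjamini-Hochberg adjustment over all genes tested. The fit was tested on simulated data. Errors are SD over 4 WT and 3 KO-labelled libraries.

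The members, lists and alternatives were chosen with earlier results of these data known. All members were named, with every called gene of the wider complement list, its 5 uncalled genes of highest level (one of which is not reported here), the 3 closest profiles and the genes within 50 kb. Genes named beyond this rule were chosen after their values were seen. Adgre1 and Cd55b were matched by identifier. The alternatives were other pseudocounts, filters and scalings, a correction for transcript length, a block on the replicate number, and the omission of single libraries.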

Additional observations from a re-analysis of the deposited data

How the results depend on the processing

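The 7 tested members kept their direction in every alternative that tested them. C1qa, C1qb, C1qc and Cfd were called in all 18 alternatives and C3 in all 17 that tested it. C1s1 lost its call with no filter (log2 difference 1.01) and without KO1 (0.94), and Serping1 with the replicate block together with the length correction (1.46, limma adjusted p = 0.0525, in a range of 0.00665 to 0.0525). The cause was not tested. C4b and Cfb moved to 1.46 and 0.57 with a minimum mean of 0.5 FPKM and a pseudocount of 0.1, an alternative chosen after seeing the data.

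With each library left out in turn, the log2 difference was 2.18 to 2.69 for C1qa, 1.62 to 2.32 for C1qb, 1.79 to 2.29 for C1qc, 0.85 to 1.17 for C1s1, 0.95 to 1.20 for C3, 2.42 to 3.85 for Cfd and 1.41 to 1.87 for Serping1, and 6 or 7 members were called. Of the further complement genes 3 to 5 were then called higher and 1 to 4 lower, with 1 lower without WT3 or KO1. Higher calls among these numbered 2 of 8 tested with a minimum mean of 5 FPKM and 6 of 22 with the lower filter and pseudocount. They numbered 6 of 15 with median-of-ratios scaling and 5 of 15 with upper-quartile scaling. Lower calls numbered 2 of 40 tested with no filter. They numbered 2 of 15 with median-of-ratios scaling, with the replicate block and with the block together with the length correction, and 1 of 15 with the length correction.

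Over all genes the calls were 1095 higher and 2315 lower, and with a library left out 497 to 1316 and 796 to 2218, the lowest being without KO1. Higher calls numbered 685 of the 8582 genes tested with a minimum mean of 5 FPKM, against 1095 of 13850 in the main fit. Lower calls numbered 1129 of 32922 genes with no filter. They numbered 1475 with median-of-ratios scaling, 3946 with an equal sum of FPKM, 1357 with the length correction and 828 with the block together with that correction. Higher genes were 32.1% of all calls, 52.0% with median-of-ratios, 44.4% with upper-quartile and 17.7% with equal-sum scaling, and 54.1% with the length correction. The median of all genes was -0.21 after equal-sum scaling and -0.15 with that sum taken without the 20 highest genes.

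The replicate numbers are not stated to pair the libraries. The deviations of same-numbered libraries from their group means correlated at 0.193, -0.110 and 0.0708 across genes. The replicate block left 921 higher and 1750 lower calls over all genes and 7 members called higher. The unknown depth and 3 KO-labelled libraries limit the precision of genes below 1 FPKM.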

Other observations

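Of the 45 further complement genes, 8 had every KO-labelled library above every WT library and 3 had every one below. These patterns held for 11.5% and 24.8% of all genes tested. The shares are not on the same footing, since 30 of the 45 were not tested. Those of the 8 that were below the filter on low values are given here, named after their values were seen. Colec11, a collectin of the lectin pathway, read 0.0788 to 0.677 FPKM in WT and 0.788 to 1.17 FPKM in KO-labelled libraries. Fcna, a ficolin, read 0.0565 to 0.236 and 0.282 to 0.729 FPKM. C5ar1, the receptor of the C5a peptide, read 0.144 to 0.296 and 0.542 to 0.839 FPKM. Itgb2, the shared beta chain of the leukocyte complement receptors, read 0.134 to 0.664 and 0.772 to 1.28 FPKM. They were not tested, and 5 of the 45 further complement genes were listed at 0 in all libraries.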
